A study of Mus musculus with 11 samples.

Results

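Interferon response genes are the genes that cells switch on when an interferon reaches them. The set described here holds 35 named mouse genes, from the RNA-binding Ifit proteins to the guanylate-binding proteins. Their values come from Affymetrix mouse arrays of heart left ventricle, and 33 of the 35 could be followed among 18194 genes on the arrays. A gene was read from a probe set that carries 1 gene symbol, and where a gene had several such probe sets the one with the highest mean over the 11 arrays stood for it. Isg15, the ubiquitin-like protein that gives a whole branch of the response its name, lay only on a probe set with several symbols, and Ifi44 was not listed on a probe set under that name, so neither is analysed here.

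The study asked what extra HMGN5, a protein that binds nucleosomes and loosens chromatin, does in the heart. Transgenic adult hearts (3 arrays) and transgenic newborn hearts (3 arrays) came from C57BL/6 mice with the mouse Hmgn5 cDNA, FLAG-tagged, placed behind a floxed LacZ under the broadly active CAG promoter. Crossing to alphaMHC-cre mice removed LacZ, and that cre is made in heart muscle cells and not in the other cells of the ventricle. Control adult hearts (3 arrays) and control newborn hearts (2 arrays) had the same strain background and were labelled wild-type, with no cre or LacZ allele named. Effects of cre, of the LacZ transgene and of HMGN5 therefore cannot be told apart. Ages are given just as adult and newborn, and the number of founder lines and any pooling of animals are not given in the sources used here.

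Type I interferons bind the receptor made of Ifnar1 and Ifnar2, and type II interferon binds Ifngr1 and Ifngr2. Both receptors act through JAK kinases and STAT proteins. Stat2 and Irf9 are parts of the complex ISGF3, which binds the interferon-stimulated response element (ISRE) in front of most of these genes, while the gamma-activated site (GAS) is the element of the type II response. In the heart, muscle cells, fibroblasts, endothelial cells and resident macrophages can all respond, and interferon-induced proteins are best known there from viral myocarditis.

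Promoter sequence of the members was searched for both elements. Promoter windows from RefSeq (build GRCm38.p6, 250 bases before to 50 after each start) were on hand for 23 of the 33 measured members. The ISRE was searched on both strands as GAAA, any 2 bases and GAAA again, and it was in the windows of 12 of the 23 members (52.17%), against 523 of 14369 measured genes with a window (3.64%). The sequences below are ISRE matches of members that the values below turn on, with the match in capitals. They are read on the gene's own strand, where a match that starts with TTTC lies on the opposite strand.
Ifit1 (chr19:34640775-34640804, plus strand, match starting 104 bases before the start): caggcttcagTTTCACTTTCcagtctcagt
Ifit1 (chr19:34640794-34640823, plus strand, match starting 85 bases before the start): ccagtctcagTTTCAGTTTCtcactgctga
Ifit3 (chr19:34583363-34583392, plus strand, match starting 156 bases before the start): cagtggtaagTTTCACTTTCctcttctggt
Ifit3 (chr19:34583397-34583426, plus strand, match starting 122 bases before the start): tttaagtctgTTTCAGTTTCtactttcctc
Oas1a (chr5:120907520-120907549, minus strand, match starting 14 bases before the start): tcgggaaatgGAAACTGAAAatctacttcc
Rsad2 (chr12:26456553-26456582, minus strand, match starting 120 bases before the start): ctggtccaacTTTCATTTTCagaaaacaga
Gbp2 (chr3:142620594-142620623, plus strand, match starting 59 bases before the start): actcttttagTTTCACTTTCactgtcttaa
Gbp7 (chr3:142530273-142530302, plus strand, match starting 53 bases before the start): gtgtgtgcagTTTCAGTTTCagttctccat
Ifit1 and Ifit3 each held a pair of such matches, and the third Ifit gene, Ifit2, held none in its windows. Bst2, Gbp3, Ifitm3, Oas1a and Trim30a held a pair as well, that of Trim30a in separate windows. For Oas1a the match nearer the start is shown.

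The GAS was searched as TTCNNNGAA, which reads the same on both strands, and was in the windows of 7 of the 23 members (30.43%), against 1231 of 14369 genes (8.57%). Bst2 and Ifitm3 carried ISRE and GAS matches that overlapped each other, and Bst2, Gbp3 and Oas1a had ISRE matches that overlapped one another. Of the matches below, that of Irf1 is shown as the gene best known for type II interferon, and that of Ifit2 because Ifit2 rose in adult transgenic hearts without an ISRE match; capitals mark the match.
Irf1 (chr11:53769914-53769942, plus strand, match starting 90 bases before the start): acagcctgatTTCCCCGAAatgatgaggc
Ifit2 (chr19:34550444-34550471, plus strand, match starting 241 bases before the start): catgggagcTTCCTGGAAgaatggataa
A match is a run of letters and not a measured binding site. Of the 12 members with an ISRE match 1 rose in adult transgenic hearts and the median difference was 0.27, and of the 11 without it 2 rose and the median was 0.18. Over all genes 4.16% rose in that comparison and the median difference was 0.0047.

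Values below are the deposited log2 signals of a probe set, so a difference of 1 is a doubling, and array values are listed for replicates 1, 2 and 3 in that order (1 and 2 for control newborn hearts). A gene is called changed at a Benjamini-Hochberg adjusted p under 0.05 over all 18194 genes, from limma on the 11 arrays, and the p-values measure the spread between these few arrays. The array medians lay between 5.12 and 5.18. Heart muscle markers, summed, read 16.68 to 16.83 on every array. Hmgn5 itself, read by 1 probe set, had log2 values of 8.29, 8.26 and 8.71 in transgenic adult hearts against 8.44, 8.77 and 8.52 in control adult hearts, and 8.56, 8.84 and 8.69 in transgenic newborn hearts against 8.85 and 8.81 in control newborn hearts. Its adult difference was -0.16 (SE 0.14, adjusted p = 0.647), and every direction below rests on the label transgenic. Whether this probe set reads the transgene is not given in the sources used here. Replicate 3 of both adult groups stood apart in the signal of the 18S ribosomal RNA probe sets, at 12.18 in the transgenic and 11.89 in the control heart, against 8.51 and 7.64 on the other transgenic and 8.25 and 8.58 on the other control adult arrays. Adult counts are therefore given with and without that pair.

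In adult hearts, 3 of the 33 members were higher with the transgene and 0 were lower. They were Ifit2, Ifit3 and Xaf1. That is 9.09% of the members, where 4.16% of all 18194 genes were called higher, 2.93% lower and 7.09% either way. At an unadjusted p under 0.05 there were 10 members, where 20.2% of all genes were past it. Without a threshold, 28 of the 33 members (84.8%) had a difference above 0, against 50.9% of all genes, and the members' median difference was 0.26, against 0.0047 over all genes. The lift was on 2 of the 3 transgenic arrays. Transgenic adult array 1 exceeded all 3 control adult arrays in 25 of 33 members (75.8%, against 36.6% of all genes), and array 2 did so in 27 (81.8%, against 31.1%). Array 3 did so in 8 (24.2%, against 23.3%) and lay below all 3 control arrays in 12 members (36.4%, against 36.8%). In newborn hearts 0 of the 33 members and 0% of all genes were called in limma. At an unadjusted p under 0.05 there were 0 members and 1.09% of all genes.

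**Figure D1:**
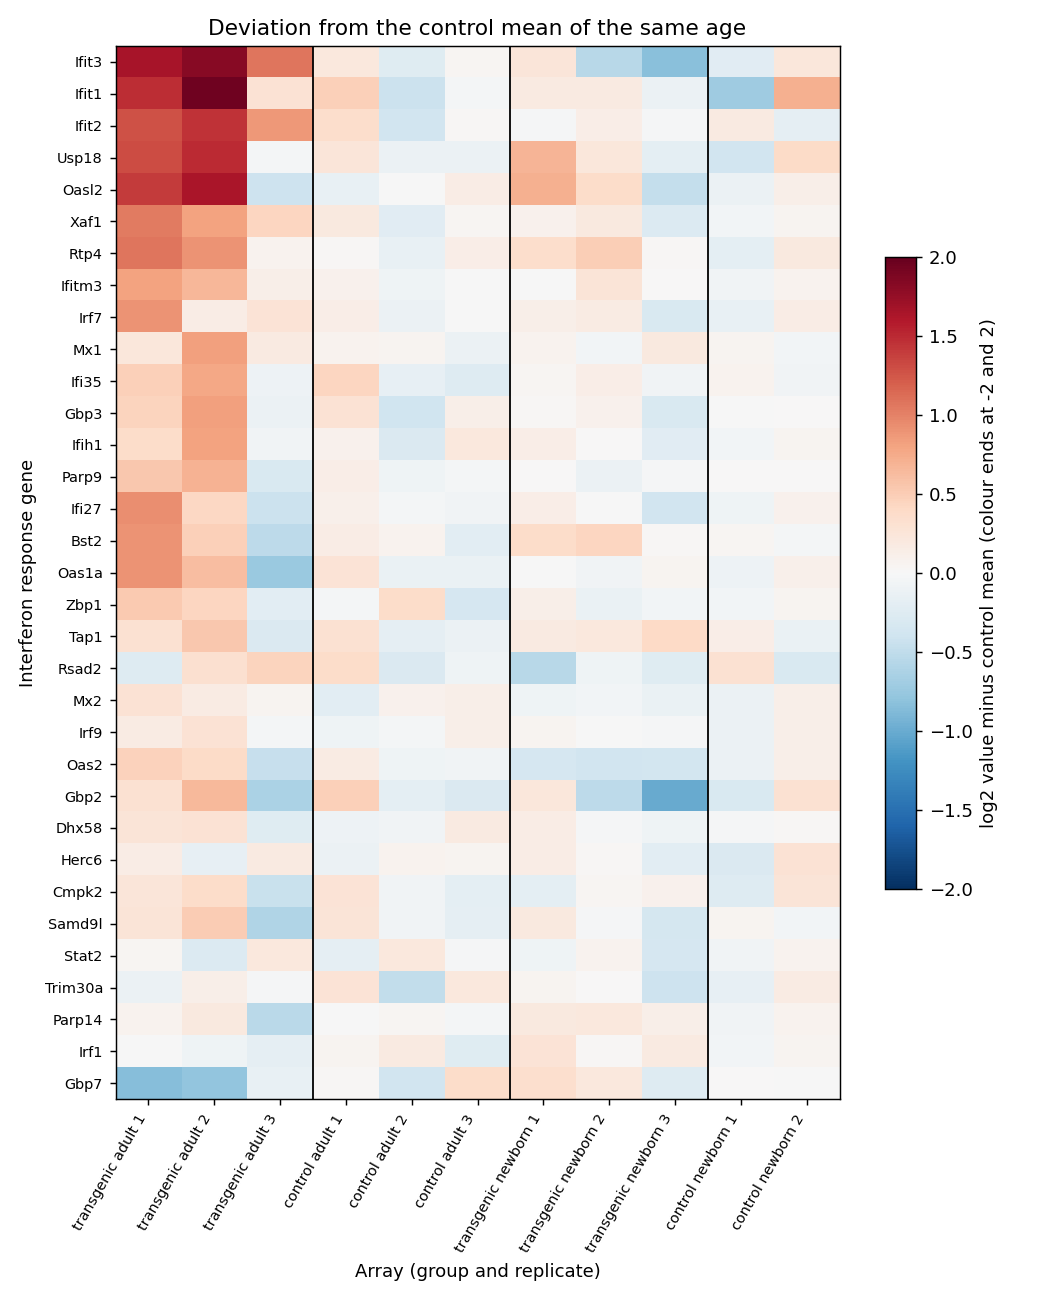
The heat map gives, for each measured member (down the page) and each array (across, transgenic left of control within each age), the log2 signal minus the mean of the control arrays of that age. Transgenic adult arrays 1 and 2 are above the control mean for most members, transgenic adult array 3 is above it for 12 of 33, and newborn arrays scatter around it.

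The Ifit proteins bind viral RNA and keep it from being translated, and they held the members with the largest adult differences. Ifit3 read 8.64, 8.81 and 8.05 on the transgenic adult arrays, against 7.19, 6.75 and 7.01 on the control adult arrays. Newborn Ifit3 values were 6.92, 6.12 and 5.84 in transgenic hearts and 6.44 and 6.90 in control hearts. All adult transgenic Ifit3 arrays were above all adult controls, and the newborn groups overlapped. Its mean was 8.50 ± 0.40 (SD, n = 3) in transgenic adult hearts, against 6.98 ± 0.22 (SD, n = 3) in control adult hearts. Ifit3 rose by 1.52 (SE 0.28, adjusted p = 0.00840) in adults, and the newborn difference was -0.38 with a 95% interval of -1.07 to 0.31. Ifit2 read 8.21, 8.37 and 7.80 on the transgenic adult arrays, against 7.29, 6.55 and 6.95 on the control adult arrays. Newborn Ifit2 values were 7.41, 7.58 and 7.42 in transgenic hearts and 7.61 and 7.26 in control hearts. Ifit2, too, had no overlap between adult groups, and it rose by 1.20 (SE 0.20, adjusted p = 0.00506). The newborn Ifit2 difference was 0.029, with a 95% interval of -0.46 to 0.52. Ifit1 read 8.33, 8.80 and 7.15 on the transgenic adult arrays, against 7.33, 6.42 and 6.83 on the control adult arrays. Newborn Ifit1 values were 5.40, 5.40 and 5.10 in transgenic hearts and 4.50 and 5.93 in control hearts. Transgenic array 3 lay below control array 1, so the adult Ifit1 groups overlapped, and the difference of 1.23 (SE 0.43, adjusted p = 0.127) did not pass. The newborn Ifit1 control arrays sat on either side of all transgenic ones. Ifit genes, like Oas, Mx and Gbp genes, have near copies in the genome, and how far probes of 1 gene bound transcripts of another was not tested.

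**Figure D2:**
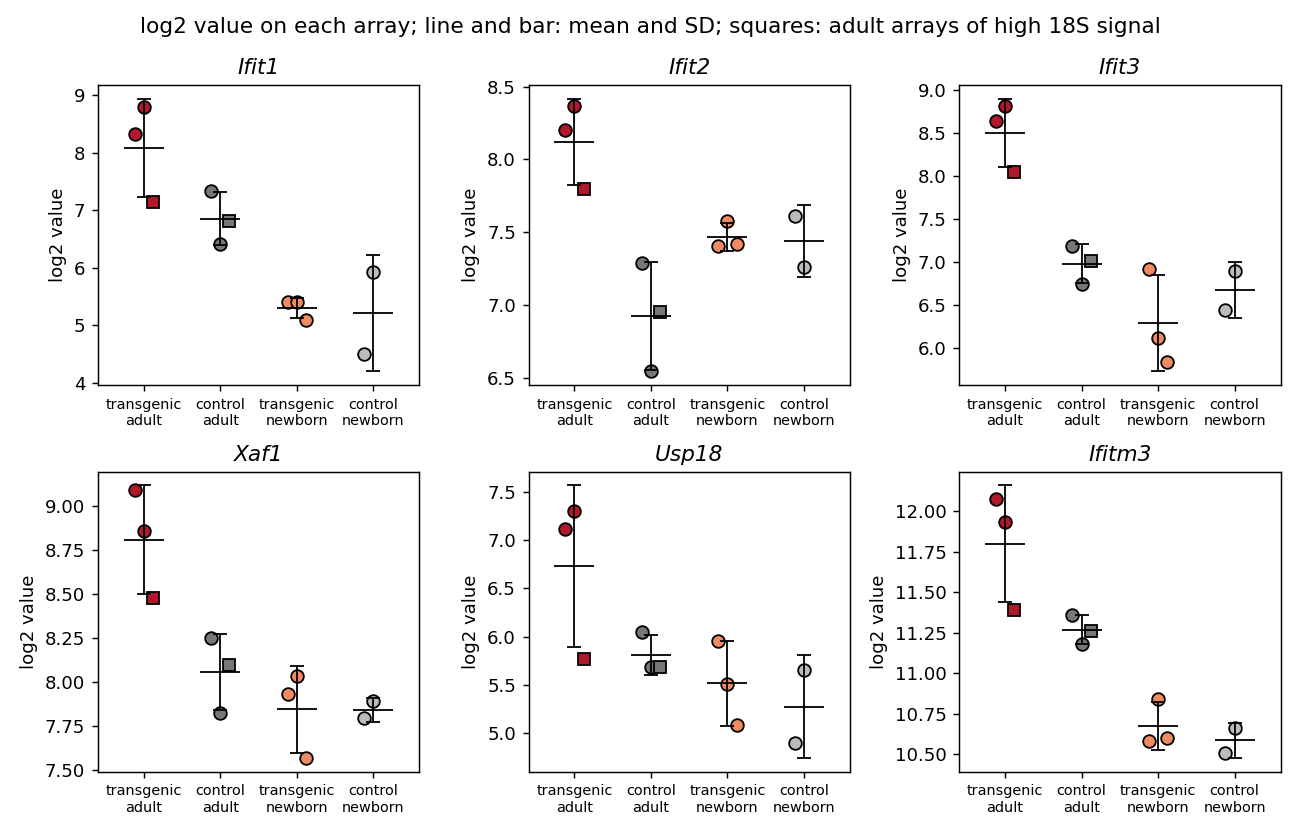
Each panel plots 1 member, with log2 signal on the y axis and the 4 groups on the x axis, points for single arrays, a line and bar for the group mean and SD, and squares for the adult arrays of high 18S signal. Ifit2, Ifit3 and Xaf1 separate the adult groups, and newborn groups overlap in all panels; the panels were chosen after the values were seen.

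Oas enzymes answer double-stranded RNA by making short oligoadenylates that switch on the nuclease RNase L. Oas1a read 8.57, 8.28 and 6.93 on the transgenic adult arrays, against 7.94, 7.53 and 7.53 on the control adult arrays. Newborn Oas1a values were 6.45, 6.38 and 6.51 in transgenic hearts and 6.36 and 6.56 in control hearts. Array 3 was the lowest of the 6 adult values for Oas1a, and arrays 1 and 2 were the highest. Oas2 read 7.79, 7.72 and 6.87 on the transgenic adult arrays, against 7.49, 7.25 and 7.27 on the control adult arrays. Newborn Oas2 values were 5.91, 5.86 and 5.88 in transgenic hearts and 6.14 and 6.36 in control hearts. The Oas2 pattern was the same in adults. In newborns both control arrays were above all transgenic ones, 1 of 3 members with separated newborn groups, at -0.37 (SE 0.23, adjusted p = 0.999985). Oasl2 is an oligoadenylate synthetase relative with ubiquitin-like domains. Oasl2 read 7.25, 7.50 and 5.45 on the transgenic adult arrays, against 5.71, 5.86 and 6.00 on the control adult arrays. Newborn Oasl2 values were 6.11, 5.76 and 4.92 in transgenic hearts and 5.27 and 5.52 in control hearts. Its transgenic adult values spanned 5.45 to 7.50, with the control values between. Adult differences were 0.26 (SE 0.33, adjusted p = 0.764) for Oas1a. They were 0.13 for Oas2 and 0.87 for Oasl2, and none of the 3 passed.

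The dynamin-like Mx GTPases trap viral particles, and C57BL/6 mice are known to carry a disabled Mx1. Mx1 read 3.87, 4.45 and 3.81 on the transgenic adult arrays, against 3.70, 3.69 and 3.52 on the control adult arrays. Newborn Mx1 values were 3.63, 3.51 and 3.75 in transgenic hearts and 3.61 and 3.50 in control hearts. Mx1 was above its array's median on 0 arrays, and its adult groups did not overlap, at 0.41 (SE 0.16, adjusted p = 0.178). Mx2 read 6.03, 5.91 and 5.80 on the transgenic adult arrays, against 5.54, 5.83 and 5.86 on the control adult arrays. Newborn Mx2 values were 5.47, 5.50 and 5.43 in transgenic hearts and 5.43 and 5.68 in control hearts. The Mx2 adult groups overlapped. Guanylate-binding proteins (Gbp) attack the vacuoles of intracellular microbes. Gbp2 read 8.30, 8.63 and 7.35 on the transgenic adult arrays, against 8.47, 7.79 and 7.70 on the control adult arrays. Newborn Gbp2 values were 7.25, 6.51 and 6.02 in transgenic hearts and 6.73 and 7.33 in control hearts. Transgenic array 3 was the lowest adult value for Gbp2. Gbp3 read 8.21, 8.58 and 7.65 on the transgenic adult arrays, against 8.05, 7.37 and 7.88 on the control adult arrays. Newborn Gbp3 values were 7.36, 7.43 and 7.03 in transgenic hearts and 7.33 and 7.35 in control hearts. Transgenic arrays 1 and 2 were the highest for Gbp3, and the groups overlapped. Gbp7 read 7.11, 7.18 and 7.83 on the transgenic adult arrays, against 7.99, 7.59 and 8.33 on the control adult arrays. Newborn Gbp7 values were 7.28, 7.15 and 6.69 in transgenic hearts and 6.94 and 6.94 in control hearts. Gbp7 ran the other way in adults, with transgenic arrays 1 and 2 below all controls and the difference at -0.60 (SE 0.24, adjusted p = 0.177). A further Gbp7 probe set gave 0.09, so the probe sets of this gene disagree.

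Membrane and viral-entry blockers came next. Ifitm3 stops the fusion of viruses with endosomes. Ifitm3 read 12.07, 11.93 and 11.39 on the transgenic adult arrays, against 11.36, 11.18 and 11.26 on the control adult arrays. Newborn Ifitm3 values were 10.58, 10.84 and 10.60 in transgenic hearts and 10.51 and 10.66 in control hearts. Transgenic adult arrays all exceeded the controls, though array 3 by a little, and the Ifitm3 difference was 0.53 (SE 0.17, adjusted p = 0.0867). Bst2 (tetherin) holds budding virions at the cell surface and is also a marker of plasmacytoid dendritic cells. Bst2 read 8.54, 8.11 and 7.10 on the transgenic adult arrays, against 7.78, 7.70 and 7.42 on the control adult arrays. Newborn Bst2 values were 8.21, 8.27 and 7.87 in transgenic hearts and 7.87 and 7.80 in control hearts. Bst2 array 3 was the lowest of the adult values. Rsad2 (viperin) makes a nucleotide that ends viral RNA chains. Rsad2 read 7.87, 8.44 and 8.57 on the transgenic adult arrays, against 8.50, 7.84 and 8.04 on the control adult arrays. Newborn Rsad2 values were 7.40, 7.88 and 7.72 in transgenic hearts and 8.26 and 7.66 in control hearts. Transgenic array 3 was the highest adult value for Rsad2, and the groups overlapped. The adult Rsad2 difference was 0.17, and further Rsad2 probe sets of lower signal gave -0.20 and -0.15. Cmpk2, a mitochondrial nucleotide kinase whose gene neighbours Rsad2, can feed that reaction. Cmpk2 read 6.90, 7.04 and 6.22 on the transgenic adult arrays, against 6.93, 6.59 and 6.47 on the control adult arrays. Newborn Cmpk2 values were 5.53, 5.75 and 5.80 in transgenic hearts and 5.46 and 5.98 in control hearts. Cmpk2 had adult groups that overlapped, at a difference of 0.057. A further Cmpk2 probe set of lower signal gave -0.11. By age that probe set gave 0.10 in transgenic and 0.30 in control hearts, against 1.03 and 0.95 with the one used. Rtp4 is a chaperone that brings certain receptors to the membrane. Rtp4 read 9.41, 9.23 and 8.41 on the transgenic adult arrays, against 8.36, 8.19 and 8.47 on the control adult arrays. Newborn Rtp4 values were 7.62, 7.77 and 7.29 in transgenic hearts and 7.08 and 7.47 in control hearts. Transgenic arrays 1 and 2 stood above all controls and array 3 did not, at an Rtp4 difference of 0.68 (SE 0.24, adjusted p = 0.123).

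Members tied to cell death and growth were mixed. Xaf1, which counters the death inhibitor XIAP, was the third member called. Xaf1 read 9.09, 8.86 and 8.48 on the transgenic adult arrays, against 8.25, 7.83 and 8.10 on the control adult arrays. Newborn Xaf1 values were 7.93, 8.03 and 7.57 in transgenic hearts and 7.79 and 7.89 in control hearts. Each transgenic adult Xaf1 value was above each control. Xaf1 rose by 0.75 (SE 0.18, adjusted p = 0.0293), and a further Xaf1 probe set gave 0.26. The Xaf1 call was lost without transgenic adult array 1 or 2, control adult array 2 or 3, or either control newborn array, at adjusted p values of 0.0512 to 0.114 and differences of 0.61 to 0.77. Zbp1 senses Z-form nucleic acid and can start cell death. Zbp1 read 6.18, 6.08 and 5.44 on the transgenic adult arrays, against 5.62, 6.03 and 5.32 on the control adult arrays. Newborn Zbp1 values were 5.26, 5.01 and 5.09 in transgenic hearts and 5.10 and 5.19 in control hearts. The Zbp1 groups overlapped at both ages. Samd9l is a growth-restraining cytoplasmic protein. Samd9l read 8.26, 8.50 and 7.40 on the transgenic adult arrays, against 8.25, 7.93 and 7.82 on the control adult arrays. Newborn Samd9l values were 6.95, 6.73 and 6.41 in transgenic hearts and 6.82 and 6.70 in control hearts. Samd9l array 3 was the lowest adult value, and control array 1 was close to transgenic array 1. Ifi27 is a small hydrophobic interferon-induced protein. Ifi27 read 9.75, 9.23 and 8.39 on the transgenic adult arrays, against 8.92, 8.78 and 8.75 on the control adult arrays. Newborn Ifi27 values were 8.14, 7.99 and 7.62 in transgenic hearts and 7.91 and 8.09 in control hearts. Ifi27 array 3 lay below all controls. Ifi35 is a cytoplasmic partner of Nmi in the response. Ifi35 read 9.79, 10.08 and 9.22 on the transgenic adult arrays, against 9.74, 9.15 and 9.05 on the control adult arrays. Newborn Ifi35 values were 8.67, 8.77 and 8.56 in transgenic hearts and 8.70 and 8.56 in control hearts. Control array 1 lay above transgenic array 3, so the Ifi35 groups overlapped.

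Among sensors and transcription factors of the response, no member was called. Ifih1 (MDA5) recognises long double-stranded RNA. Ifih1 read 7.51, 7.94 and 7.07 on the transgenic adult arrays, against 7.22, 6.85 and 7.35 on the control adult arrays. Newborn Ifih1 values were 6.51, 6.38 and 6.14 in transgenic hearts and 6.31 and 6.43 in control hearts. The Ifih1 transgenic arrays 1 and 2 were the highest adult values. Dhx58 (LGP2) is a partner of Ifih1 that tunes its signal. Dhx58 read 4.72, 4.74 and 4.22 on the transgenic adult arrays, against 4.35, 4.38 and 4.63 on the control adult arrays. Newborn Dhx58 values were 3.93, 3.75 and 3.70 in transgenic hearts and 3.75 and 3.80 in control hearts. Dhx58 read below its array's median on all arrays. Irf7 is a transcription factor that amplifies type I interferon. Irf7 read 6.85, 6.11 and 6.23 on the transgenic adult arrays, against 6.09, 5.84 and 5.95 on the control adult arrays. Newborn Irf7 values were 5.62, 5.66 and 5.20 in transgenic hearts and 5.36 and 5.64 in control hearts. The Irf7 groups did not overlap in adults, with transgenic array 1 well above the rest, and the difference was 0.44 (SE 0.20, adjusted p = 0.243). Irf1 is the early transcription factor of type II interferon. Irf1 read 8.49, 8.41 and 8.32 on the transgenic adult arrays, against 8.56, 8.69 and 8.26 on the control adult arrays. Newborn Irf1 values were 7.91, 7.67 and 7.81 in transgenic hearts and 7.58 and 7.69 in control hearts. Irf1 groups overlapped, with a difference of -0.095. Irf9 and Stat2 are DNA-binding and activating parts of ISGF3. Irf9 read 6.88, 7.01 and 6.67 on the transgenic adult arrays, against 6.63, 6.67 and 6.84 on the control adult arrays. Newborn Irf9 values were 6.64, 6.57 and 6.56 in transgenic hearts and 6.47 and 6.70 in control hearts. Irf9 differed by 0.14. Stat2 read 5.14, 4.83 and 5.30 on the transgenic adult arrays, against 4.91, 5.31 and 5.08 on the control adult arrays. Newborn Stat2 values were 4.88, 5.04 and 4.63 in transgenic hearts and 4.90 and 5.04 in control hearts. Stat2 differed by -0.0054, and its groups overlapped at both ages.

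The remaining members handle ISG15, ADP-ribose and antigen. Usp18 strips ISG15 from proteins and brakes the type I receptor. Usp18 read 7.12, 7.30 and 5.77 on the transgenic adult arrays, against 6.05, 5.69 and 5.69 on the control adult arrays. Newborn Usp18 values were 5.96, 5.51 and 5.08 in transgenic hearts and 4.90 and 5.65 in control hearts. Transgenic arrays 1 and 2 were more than a log2 unit above every adult control and array 3 was among the controls, with Usp18 at 0.92 (SE 0.37, adjusted p = 0.190). Herc6 is the main ISG15 ligase of mice. Herc6 read 5.80, 5.49 and 5.83 on the transgenic adult arrays, against 5.53, 5.71 and 5.70 on the control adult arrays. Newborn Herc6 values were 5.35, 5.23 and 4.99 in transgenic hearts and 4.91 and 5.49 in control hearts. Herc6 groups overlapped at both ages. Trim30a is an antiviral ubiquitin ligase of the TRIM family. Trim30a read 7.18, 7.42 and 7.28 on the transgenic adult arrays, against 7.57, 6.81 and 7.52 on the control adult arrays. Newborn Trim30a values were 5.92, 5.87 and 5.43 in transgenic hearts and 5.68 and 6.03 in control hearts. Control array 1 was the highest adult Trim30a value, and the adult difference was -0.0095. A further Trim30a probe set gave 0.43 (SE 0.36), with transgenic arrays 1 and 2 the highest adult values, so the probe sets of this gene disagree. Parp9 and Parp14 act on ADP-ribose marks of proteins. Parp9 read 8.30, 8.45 and 7.46 on the transgenic adult arrays, against 7.89, 7.67 and 7.72 on the control adult arrays. Newborn Parp9 values were 7.83, 7.71 and 7.80 in transgenic hearts and 7.83 and 7.83 in control hearts. Parp9 array 3 was the lowest adult value. Parp14 read 7.45, 7.57 and 6.84 on the transgenic adult arrays, against 7.37, 7.41 and 7.34 on the control adult arrays. Newborn Parp14 values were 6.30, 6.31 and 6.23 in transgenic hearts and 6.03 and 6.18 in control hearts. Parp14 newborn transgenic arrays were all above the controls, at 0.17 (SE 0.19, adjusted p = 0.999985). Tap1 pumps peptides toward MHC class I. Tap1 read 6.61, 6.85 and 6.02 on the transgenic adult arrays, against 6.61, 6.13 and 6.20 on the control adult arrays. Newborn Tap1 values were 5.64, 5.68 and 5.87 in transgenic hearts and 5.60 and 5.33 in control hearts. Tap1 also separated in newborns, with a difference of 0.26. Further probe sets of lower signal gave newborn differences of -0.018, 0.0077 and -0.0053 for Tap1 and -0.012 for Parp14.

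Members whose groups did not overlap were counted in each age. In newborns, 2 of 33 members (Tap1 and Parp14) were above with no overlap, where 11.1% of all genes were, and 1 (Oas2) was below, where 9.83% of all genes were. In adults 6 of 33 members (Ifit2, Ifit3, Irf7, Mx1, Xaf1 and Ifitm3) were above with no overlap, where 10% of all genes were, and 0 were below, where 7.94% were. The newborn differences of the 33 members ran between -0.44 and 0.29, with a median of -0.0075 and 16 of them above 0, where 51.4% of all genes were. The 95% intervals of newborn differences reached from -1.37 to 1.33 over the members, the bounds of Gbp2 and Oasl2. These intervals rest on a spread shared over all 11 arrays, and not on the newborn arrays alone. The members' residual SD had a median of 0.18 on newborn and 0.36 on adult arrays. Differences inside a member's interval were not excluded by this fit, with 3 against 2 newborn arrays.

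Leaving out the replicate 3 pair, or its transgenic array alone, changed how many members were called. With the replicate 3 pair left out, 11 of 33 members were higher and 0 lower (33.3%), where 7.41% of all genes were called higher. They were Ifit1, Ifit2, Ifit3, Oas1a, Oasl2, Usp18, Ifih1, Rtp4, Xaf1, Parp9 and Ifitm3. Ifit1 then rose by 1.69 (SE 0.41, adjusted p = 0.0228), Ifit3 by 1.76 (SE 0.30, adjusted p = 0.00433), and Oasl2 by 1.59 (SE 0.30, adjusted p = 0.00698). Usp18 rose by 1.34 (SE 0.29, adjusted p = 0.0134) and Rtp4 by 1.05 (SE 0.18, adjusted p = 0.00393) on the same 4 arrays. Between the replicate 3 arrays alone, 14 of 33 members (42.4%) were above 0, with a median of -0.16, against 46.9% and -0.017 over all genes. Between replicates 1 and 2, 29 of 33 (87.9%) were above 0, with a median of 0.46, against 52.4% and 0.012 over all genes. Ifit3 read 1.04 higher and Ifit2 0.845 higher in the transgenic than in the control heart of the replicate 3 pair. With the pair as a batch factor, 5 members were called, where 14.4% of all genes were: Ifit2, Ifit3, Xaf1 and Ifitm3 rose, and Gbp7 fell. Without transgenic adult array 3, 14 members were called, of which 13 rose and 1 fell, where 12.5% of all genes were called. With the 6 adult arrays fitted alone 1 member was called, where 2.05% of all genes were.

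**Figure D3:**
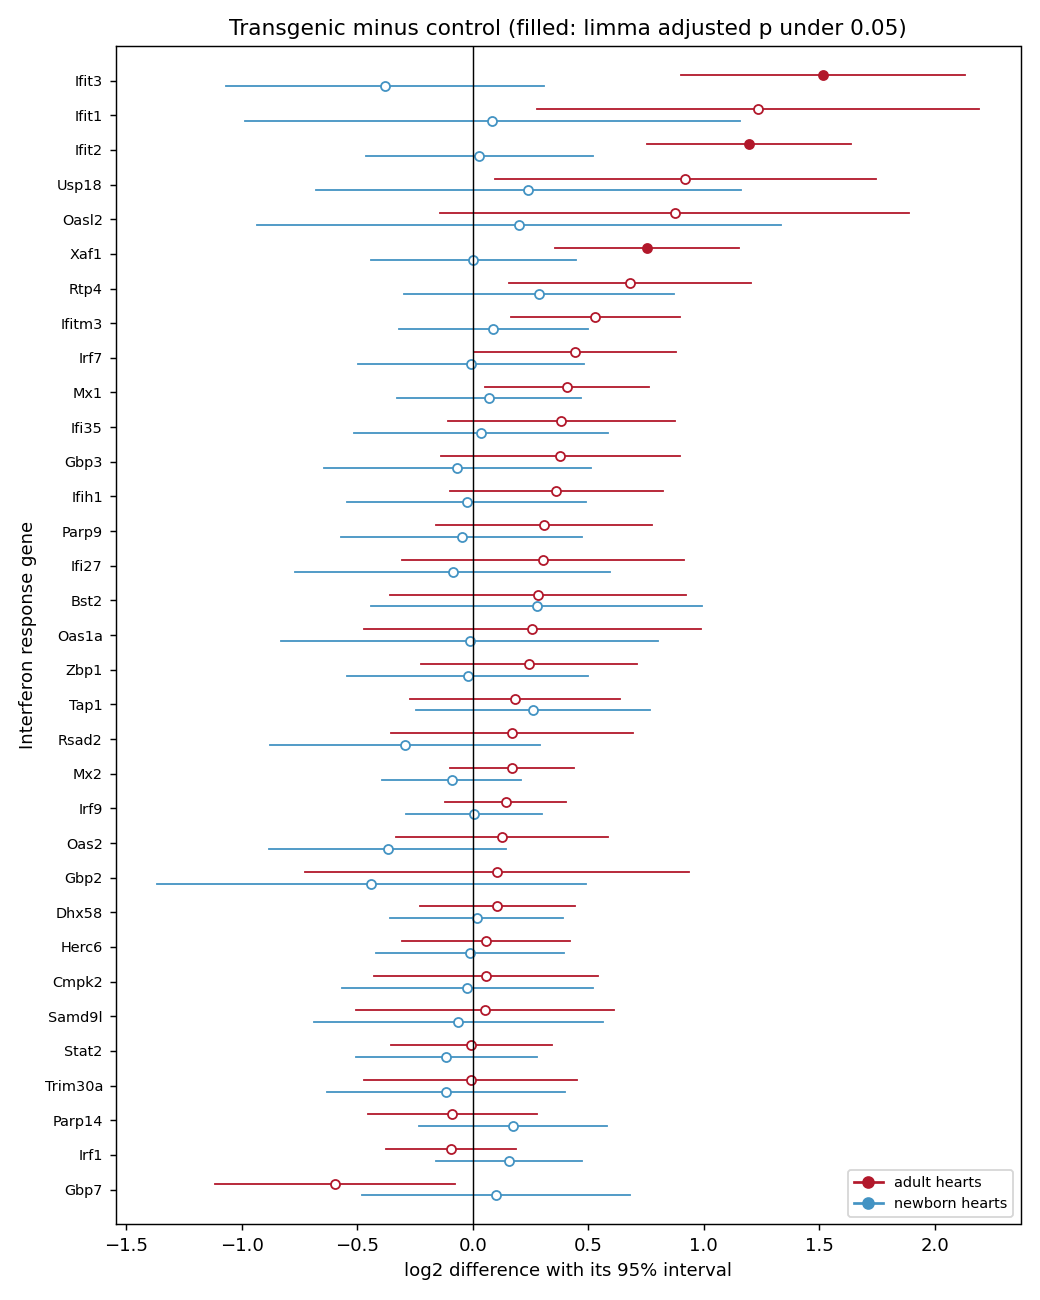
Each measured member is a line down the page, with the difference of log2 means (transgenic minus control) and its 95% interval on the x axis for adults and for newborns. Filled points mark an adjusted p under 0.05 (Ifit3, Ifit2 and Xaf1 in adults), and the newborn intervals of all 33 members include 0.

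Whether the effect differs between ages was tested as the adult effect minus the newborn effect. None of the 33 members passed (0 of 33), where 0.687% of all genes did in limma (0.445% above and 0.242% below 0). At an unadjusted p under 0.05 there were 3 members, where 10% of all genes were past it. Ifit3 came closest, at 1.89 (SE 0.42, adjusted p = 0.0770), followed by Ifit2 at 1.17 (SE 0.30, adjusted p = 0.127). The median of this difference over the members was 0.35, against 0.0049 over all genes, with 29 of 33 above 0, where 50.7% of all genes were. Adult arrays also scattered more than newborn arrays: the residual SD of a member had a median of 0.36 on adult and 0.18 on newborn arrays, against 0.21 and 0.11 over all genes. With the replicate 3 pair left out, 3 members (Ifit2, Ifit3 and Oas2) passed, where 3.91% of all genes did. Without transgenic adult array 3 alone 3 members passed (9.09%), where 2.97% of all genes did, and without transgenic newborn array 1 it was 1 (3.03%), where 0.401% of all genes did.

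Members read higher in adult than in newborn hearts. In transgenic hearts 25 of 33 were higher in adults (75.8%) and 0 lower, where 19.7% of all genes were higher, 19.7% were lower and 39.4% were called either way. In control hearts 14 of 33 members were higher (42.4%) and 0 lower, where 14.9% of all genes were higher, 18.1% were lower and 33% were called either way. The members' median difference was 0.97 in transgenic hearts, against 0.094 over all genes, and 0.68 in control hearts, against 0.090 over all genes. In transgenic hearts 32 members were above 0 (57.7% of all genes) and in control hearts 30 (57.4%). In both genotypes 13 members were called, in transgenic hearts alone 12, in control hearts alone 1 (Gbp7) and in neither 7. The test of the difference, above, called none of them. A further Gbp7 probe set gave 0.51 by age in control and 0.53 in transgenic hearts. Neither was called when every probe set was tested in limma (adjusted p = 0.191 and 0.117). The control count rests on 2 newborn arrays: without control newborn array 1 it was 4 of 33 (12.1%), where 15.5% of all genes were called either way, and without array 2 it was 8 (24.2%), where 20.1% were. Array processing cannot be told apart from age, since newborn 18S values were 10.05 to 10.53 and adult values lay on either side.

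Ifit1 gave the widest gap by age, at 2.79 (SE 0.43, adjusted p = 6.48e-04) in transgenic hearts and 1.64 (SE 0.49, adjusted p = 0.0247) in control hearts. Trim30a rose by 1.55 (SE 0.21, adjusted p = 2.49e-04) in transgenic and 1.45 (SE 0.23, adjusted p = 9.05e-04) in control hearts. The further Trim30a probe set gave 1.71 and 0.98, the latter not called when every probe set was tested in limma (adjusted p = 0.102). Parp14 rose by 1.01 in transgenic and 1.27 in control hearts, and Samd9l by 1.36 and 1.24. A further Parp14 probe set of lower signal gave 0.49 and 0.39. Oas1a rose by 1.48 in transgenic and 1.21 in control hearts, and Oas2 by 1.58 and 1.08. The same gap in Irf1 was 0.61 and 0.86, both called, while its adult transgenic difference was not. Ifit3 read 2.20 higher in adults in transgenic hearts (adjusted p = 1.69e-04) and 0.31 higher in control hearts (adjusted p = 0.454). Ifit2 rose by 0.66 in transgenic hearts (adjusted p = 0.0245) and differed by -0.51 in control hearts (adjusted p = 0.0998). Bst2 ran the other way, at -0.20 in transgenic and -0.20 in control hearts, and was not called. Adult arrays lay wholly above newborn arrays in 26 members in transgenic hearts, where 30% of all genes did, and in 23 in control hearts, where 35.1% did. They lay wholly below in 0 members in transgenic hearts, where 24.7% of all genes did, and in 1 (Bst2) in control hearts, where 28.5% did.

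**Figure D4:**
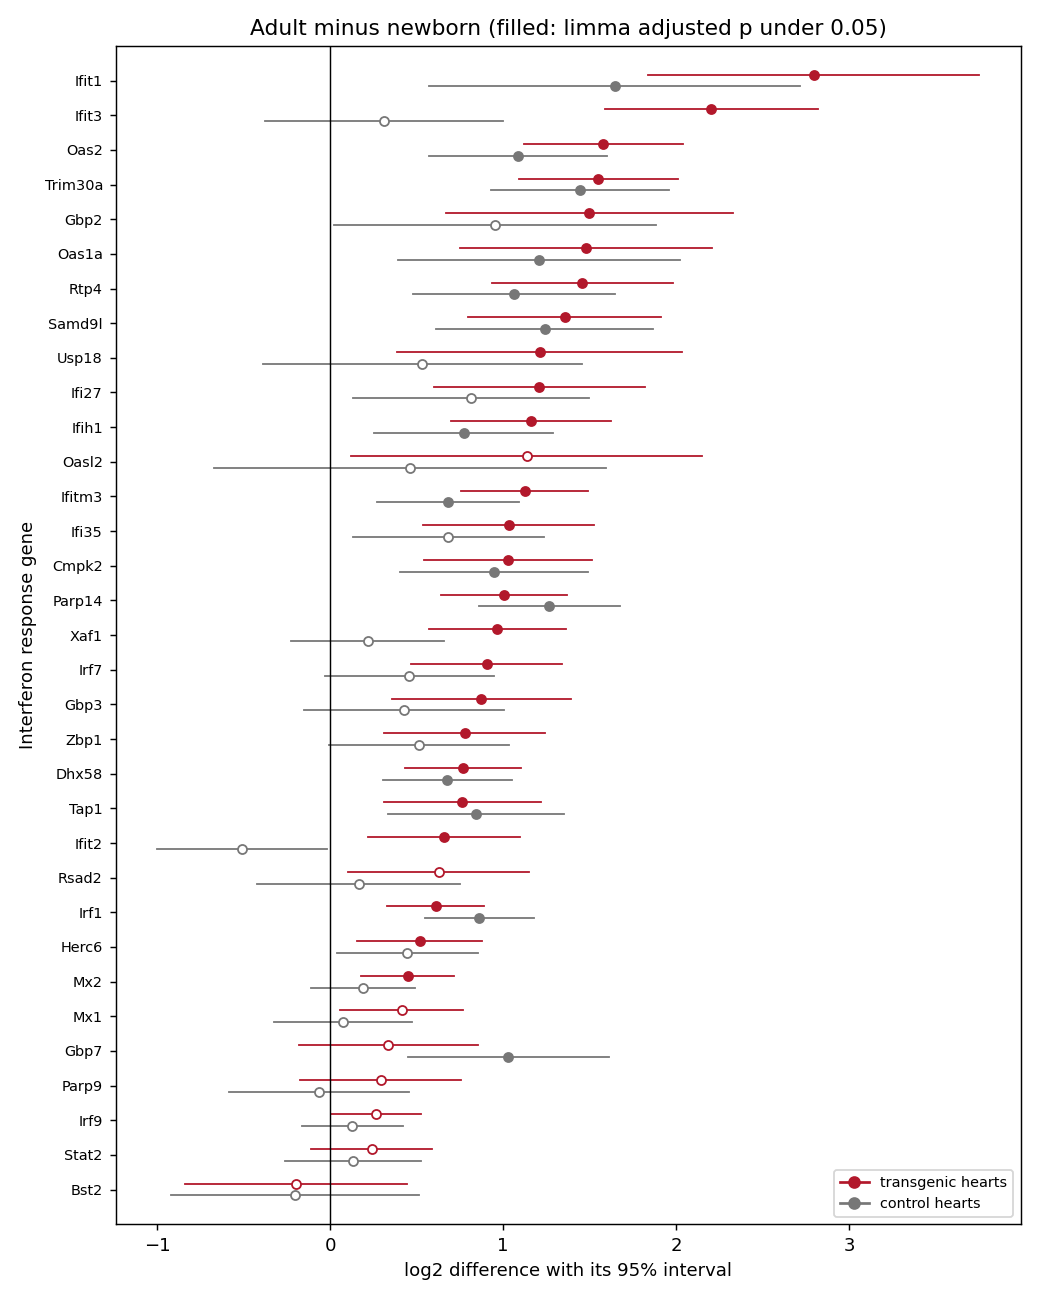
Each measured member is a line down the page, with the difference of log2 means (adult minus newborn) and its 95% interval on the x axis for transgenic and for control hearts. Most members lie right of 0 in both, and Ifit1 lies farthest right.

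The rest of the pathway was read from 5 further lists. In adults 4.16% of all genes were called higher and 2.93% lower, the shares to set beside each count. Among 15 measured interferon ligands and receptors, 0 rose and 2 fell: Ifngr2, the signalling chain of the type II receptor, at -0.93 (SE 0.18, adjusted p = 0.0100), and Il10rb, a chain of the type III receptor, at -0.53 (SE 0.13, adjusted p = 0.0341). The receptor chains that bind type I interferon, Ifnar1 and Ifnar2, were not called, at -0.040 and 0.37. None of 14 signal transducers and brakes changed in limma, and 2 of them had an unadjusted p under 0.05, where 20.2% of all genes did. Of 16 nucleic acid sensors and adaptors 1 rose, Ifi204, a DNA-binding relative of the human sensor IFI16, at 0.89 (SE 0.20, adjusted p = 0.0234). Of 43 further interferon-stimulated effectors 3 rose and 2 fell. Lgals3bp, a secreted lectin-binding glycoprotein, rose by 0.88 (SE 0.16, adjusted p = 0.00699), Ifitm2, a relative of Ifitm3, by 0.49 (SE 0.11, adjusted p = 0.0197), and Slfn2, a Schlafen protein, by 0.56 (SE 0.14, adjusted p = 0.0402). The fall was -1.07 (SE 0.16, adjusted p = 0.00319) for Iigp1, a GTPase that acts on parasite vacuoles, and -0.61 (SE 0.16, adjusted p = 0.0408) for Pnpt1, a mitochondrial RNA-degrading enzyme. Of 11 MHC class I genes 0 rose and Psme1, a proteasome activator, fell by 0.61 (adjusted p = 0.0314). No gene of the 5 lists was called in newborns or for the difference between ages, where 0% and 0.687% of all genes were. With the replicate 3 pair left out, the genes called on these lists in adults kept their call and direction, 2 of 2, 1 of 1, 5 of 5 and 1 of 1 in the order above. Over all genes 7.41% were called higher and 12% either way in that setting. There were then 1 higher and 2 lower ligands and receptors, 1 higher and 1 lower signal transducer or brake, 1 higher sensor, 10 higher and 2 lower effectors, and 4 higher and 1 lower MHC class I genes. The 4 were B2m at 0.78 (adjusted p = 0.0116), H2-K1 at 0.72 (adjusted p = 0.00827), H2-D1 at 0.53 (adjusted p = 0.0177) and Psmb10 at 0.53 (adjusted p = 0.0412). Some listed genes are not analysed here.

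By age, 20 of the 43 further effectors were higher and 2 lower in adult transgenic hearts, and 16 and 2 in adult control hearts. Over all genes 19.7% were higher and 19.7% lower in transgenic hearts, and 14.9% and 18.1% in control hearts. Of the 11 MHC class I genes 8 were higher and 1 lower in transgenic hearts, and 7 and 0 in control hearts. Of the 15 ligands and receptors 7 were higher and 1 lower in transgenic hearts, and 5 and 1 in control hearts. Of the 14 transducers and brakes 1 was higher and 2 lower in transgenic hearts, and 2 and 1 in control hearts. Of the 16 sensors and adaptors 4 were higher and 1 lower in transgenic hearts, and 3 and 2 in control hearts. As shares, 7.14% of transducers and 25% of sensors were higher in transgenic hearts, and 14.3% and 18.8% in control hearts. The transducer shares thus lay below the all-gene shares of higher calls, and the sensor shares a little above them. Iigp1 read 2.46 higher in adult transgenic hearts and 3.50 higher in adult control hearts. Erap1, which trims peptides for MHC class I, read 1.21 and 1.30 higher, and Psmb8, an immunoproteasome part, 1.61 and 1.63. Ifnar1 went the other way, at -0.84 in transgenic and -0.70 in control hearts.

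Macrophage markers read higher on the same adult arrays as the members. All 11 markers had an adult difference above 0, and C1qa, C1qc and Mrc1 rose by 0.70, 0.69 and 0.79. Over all genes 50.9% were above 0 and 4.16% were called higher. The summed log2 level of the macrophage markers was 12.60 to 13.34 on transgenic adult and 12.39 to 12.69 on control adult arrays. It was 10.44 to 10.90 on transgenic newborn and 10.52 to 10.76 on control newborn arrays. Set against the control mean of their age, the markers had a median of 0.86, 0.79 and 0.21 on transgenic adult arrays 1 to 3, against 0.23, -0.09 and -0.07 on control adult arrays. The same median over the members was 0.44, 0.50 and -0.10 on the transgenic adult arrays, against 0.13, -0.09 and -0.03 on the control ones. By age, 11 of the 11 macrophage markers were called higher in adult transgenic hearts and 9 in adult control hearts. Of the 9 T and NK cell markers 7 and 5 were, and of the 5 B cell markers 3 and 5. Over all genes 19.7% and 14.9% were called higher. Fibroblast markers summed to 14.55 to 14.96 on transgenic adult arrays, against 13.70 to 14.43 on control ones, and Postn and Tcf21 rose by 3.18 and 0.82. Of the 8 endothelial markers 1 was called, Kdr, which fell by 0.78. Among the 8 adult differences 3 were above 0, with a median of -0.145. Endothelial markers summed to 11.52 to 11.80 on transgenic adult arrays, against 11.71 to 11.78 on control ones. Monocyte and neutrophil markers summed to 8.58, 8.51 and 9.61 on transgenic adult arrays, against 8.34, 8.52 and 7.90 on control ones, with none called. The high and the low end were both on the replicate 3 arrays. Atrial markers, also present in these ventricle samples, summed to 14.09 to 14.51 on transgenic and 12.67 to 14.21 on control adult arrays. Nppa, an atrial hormone on both heart muscle lists, rose by 2.35, and no other marker of those lists was called in adults. The other 5 of the 6 atrial markers had an adult difference below 0, and the median of the 6 was -1.19, with the lowest at -3.97. Set against the control mean of their age, the 6 had a median of 0.08, -1.66 and -1.99 on transgenic adult arrays 1 to 3, against -0.46, -0.51 and 0.91 on control adult arrays. Unadjusted p was under 0.05 for 4 of the 6. With the replicate 3 pair left out, all markers called in adults kept their call and direction, 8 of 11 macrophage and 7 of 9 fibroblast markers were higher, and the median of the atrial markers was -0.36. Over all genes 7.41% were then called higher. Markers of T and NK cells, B cells and plasmacytoid dendritic cells gave 0 calls in adults. Of the 9 T and NK cell markers 5 were below the array median on all arrays, as were 2 of the 5 B cell markers and 2 of the 5 markers of plasmacytoid dendritic cells. In such bulk samples fewer cells of a type and less RNA per cell cannot be told apart, and the part of macrophages in the members' values was not tested.

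**Figure D5:**
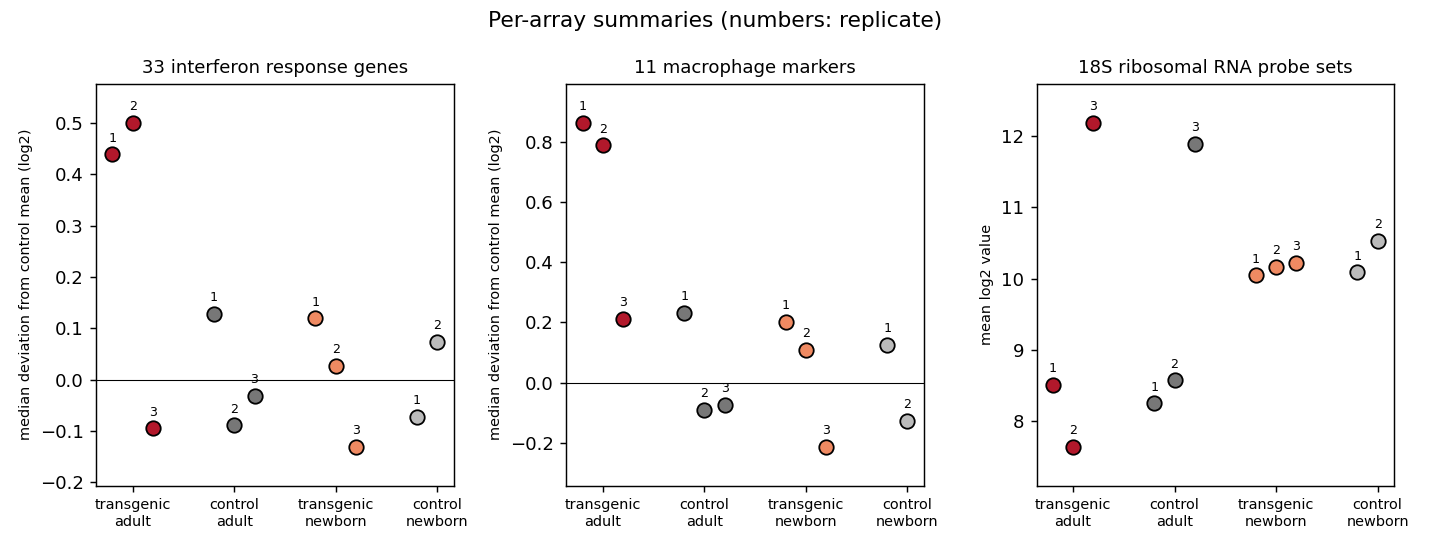
The panels give, for each array (transgenic left of control within each age), the median log2 difference from the control mean of its age over the members and over the macrophage markers, and the 18S signal. Transgenic adult arrays 1 and 2 are highest in both medians, and array 3 carries the high 18S signal that its control counterpart shares.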

How the data were processed

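Total RNA from heart left ventricle was labelled as biotinylated cRNA and read on Affymetrix mouse arrays, per the labels' protocols. In the submitters' processing notes stand RMA, affy and limma, without version or role. Each deposited value is a log2 signal, made by the authors for each of 45101 probe sets on 11 arrays. Their near-equal medians would hide a shift shared by most transcripts. Precision is limited by the number of arrays.

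Gene names came from the platform annotation: 34958 probe sets had 1 symbol, 932 more than that and 9211 none here. Of the single-symbol probe sets, 34754 had a gene ID held by RefSeq (GRCm38.p6, used for names), and 0 symbols changed. For each of 18194 genes the probe set with the highest mean was used. The 4 groups were fitted with limma 3.58.1 (R 4.3.3, lmFit and eBayes, 7 residual and 3.85 prior degrees of freedom), with 2-sided tests and Benjamini-Hochberg adjustment over all genes within a contrast. The step was tested on simulated data.

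Members, gene lists and the naming rule were chosen with earlier results of these data known. The rule was: all 35 members, with array values; from each pathway list the genes called in a transgenic contrast or its difference between ages, at most 6; from each cell type list counts, summed levels and called genes; Hmgn5; and the 5 other genes whose pattern is most like the members. Age values of single pathway genes and the panels of 6 members were chosen after their values were seen. A summed level is the log2 of the sum of linear signals. Alternatives were the replicate block, the compared arrays alone, a filter on low values (above the 40th percentile on at least 2 arrays, passed by 32 members, Mx1 failing), probe set means for each gene, every probe set, a variance trend, cyclic loess, a common median, the replicate 3 pair as a factor or left out, and each array left out. Counts of the pathway and marker lists without the pair were added after seeing the data.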

Additional observations from a re-analysis of the deposited data

How the results depend on the processing

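Over 3985 results of single genes under the alternatives, 3668 kept direction and side of the threshold, 110 lost the call, 77 gained it, 129 changed sign while called in neither setting and 1 turned: Herc6 by age in transgenic hearts was -0.035 with the mean of its probe sets (adjusted p = 0.792), against 0.52 with the probe set used (adjusted p = 0.0297). Ifit3 was called in adults in 21 of 21 alternatives, Ifit2 in 20 of 21 (adjusted p = 0.0513 with the adult arrays alone) and Xaf1 in 12 of 21. The adult count of 3 members became 1 with the compared arrays alone, 5 with the replicate 3 pair as a batch factor and 11 with the pair left out, and ran between 2 and 14 when single arrays were left out. All-gene counts were 1290 as reported and 373, 2625 and 2183 under those settings. The difference between ages called 1 member with the batch factor, 3 with the pair left out and 0 to 3 with single arrays left out, and it has no fit with the compared arrays alone. Adult against newborn in control hearts called 4 to 18 members with single arrays left out, in transgenic hearts 21 to 28. Newborn counts were 0 in every alternative run. Same-numbered arrays deviated together with r = 0.31, -0.06 and 0.45 in adults and 0.18 and -0.15 in newborns. With 2 control newborn arrays the newborn values are mirror images by construction and cannot bear on pairing. Differently numbered adult arrays gave r from -0.42 to 0.31. As the adult replicate 2 arrays gave -0.06, the numbers were not taken to pair the arrays, while the adult replicate 3 arrays also share the high 18S signal. With the replicate block 4 adult members were called (3 higher and Gbp7 lower, adjusted p = 0.0352), 0 in newborns, 0 for the difference, and by age 26 in transgenic and 17 in control hearts. The 18S signal and macrophage markers limit how the adult values can be read, as do 3 or 2 arrays a group and a shared estimate of spread over adult and newborn arrays that scatter unequally.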

Other observations

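The 5 other genes whose pattern over the 11 arrays was most like the mean of the members, after each gene was centred on its age, were Mpzl3, Pld4, Hpse, Ms4a7 and Prkd3. Their Pearson correlations with that mean were 0.976, 0.970, 0.965, 0.965 and 0.958, as a description over arrays that share their RNA with the members. The members themselves ran from -0.55 to 0.97 with a median of 0.77, and the median over all genes was 0.15. Pld4 is a nuclease of endosomes that degrades single-stranded nucleic acid. Pld4 read 5.82, 5.89 and 5.04 on the transgenic adult arrays, against 5.35, 5.21 and 5.25 on the control adult arrays. Transgenic arrays 1 and 2 were the highest Pld4 values and array 3 the lowest in adults. Ms4a7 is on the macrophage marker list. Ms4a7 read 8.27, 8.41 and 6.82 on the transgenic adult arrays, against 7.00, 6.29 and 6.53 on the control adult arrays. Its difference was 1.22 (SE 0.37, adjusted p = 0.0767) in limma. Hpse, the enzyme that cuts heparan sulfate, differed by 0.37, Mpzl3 by 0.37 and the kinase gene Prkd3 by 0.22 in adults, and none of the 5 was called there. Newborn Ms4a7 values were 5.83, 5.47 and 5.07 in transgenic hearts and 5.66 and 5.84 in control hearts. All 5 had newborn groups that overlapped.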
